A study of Homo sapiens with 6 samples.

Results

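Glutathione is the most abundant small thiol of animal cells, and the genes described here make it, spend it, recycle it and break it down. They were the 10 genes GCLC, GCLM, GSS, GSR, GPX1, GPX2, GPX3, GPX4, GGT1 and CHAC1, found by their symbols among the 33451 genes of the deposited count table, and all 10 were present. The cells were MDA-MB-453, a line from a human breast carcinoma, and the agent was 25(OH)D, the metabolite of vitamin D found in the circulation. The Control group was MDA-MB-453 cells grown for 5 days with the solvent, an alcohol, and the 25(OH)D group was the same line grown for 5 days with 100 nM 25(OH)D, each with 3 mRNA libraries. No sample carried a genetic change beyond those of the line, and a single cell line was examined at a single dose and time. The comparison asks how the culture with 25(OH)D altered the mRNA of the glutathione genes.

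Glutathione is a tripeptide of glutamate, cysteine and glycine. Glutamate-cysteine ligase, a pair of a catalytic subunit (GCLC) and a modifier subunit (GCLM), carries out the rate-limiting step, and glutathione synthetase (GSS) adds glycine. Glutathione peroxidases use the thiol to reduce peroxides, with selenocysteine in the active site of GPX1, GPX2, GPX3 and GPX4, and glutathione reductase (GSR) restores the oxidised form with NADPH. GGT1 cleaves glutathione at the outside of the cell, and CHAC1 degrades it in the cytosol. NRF2, acting through antioxidant response elements, is a known activator of many of these genes, and CHAC1 is a known target of the stress factor ATF4.

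In cells cultured with 25(OH)D, GGT1 rose 5.15-fold (95% interval 4.36 to 6.07, n = 3 each) and CHAC1 fell to 0.373 of its control level (0.276 to 0.506, n = 3 each). GCLM rose 1.68-fold (1.41 to 2.01), GSR 1.32-fold (1.20 to 1.45) and GPX4 1.17-fold (1.10 to 1.24). These fold changes are from edgeR's quasi-likelihood test on the counts, and a gene was called changed at a Benjamini-Hochberg adjusted p under 0.05 over all 18183 genes tested. GCLC, GSS, GPX1, GPX2 and GPX3 did not pass the test. Levels below are in CPM, the counts of a gene per 1000000 counts of the library after scaling by TMM factors, which allow for differences in composition. In these bulk libraries a smaller share of cells with a transcript and less of it per cell cannot be told apart. Thus 4 of the 10 members rose and 1 fell, while among all genes tested 17.3% were called higher and 16.5% lower, 33.8% in either direction. The median log2 fold change was 0.16 over the members and -0.011 over all genes tested. Only GGT1 and CHAC1 exceeded a log2 fold change of 1 in size with an adjusted p under 0.05, which 5.99% of all genes did, or 6.65% with an unadjusted p under 0.05. Since the members passed a common low-count filter that a gene can pass through either group, and GPX2 and GPX3 lay near it, the counts describe these 10 genes and nothing more.

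**Figure D1:**
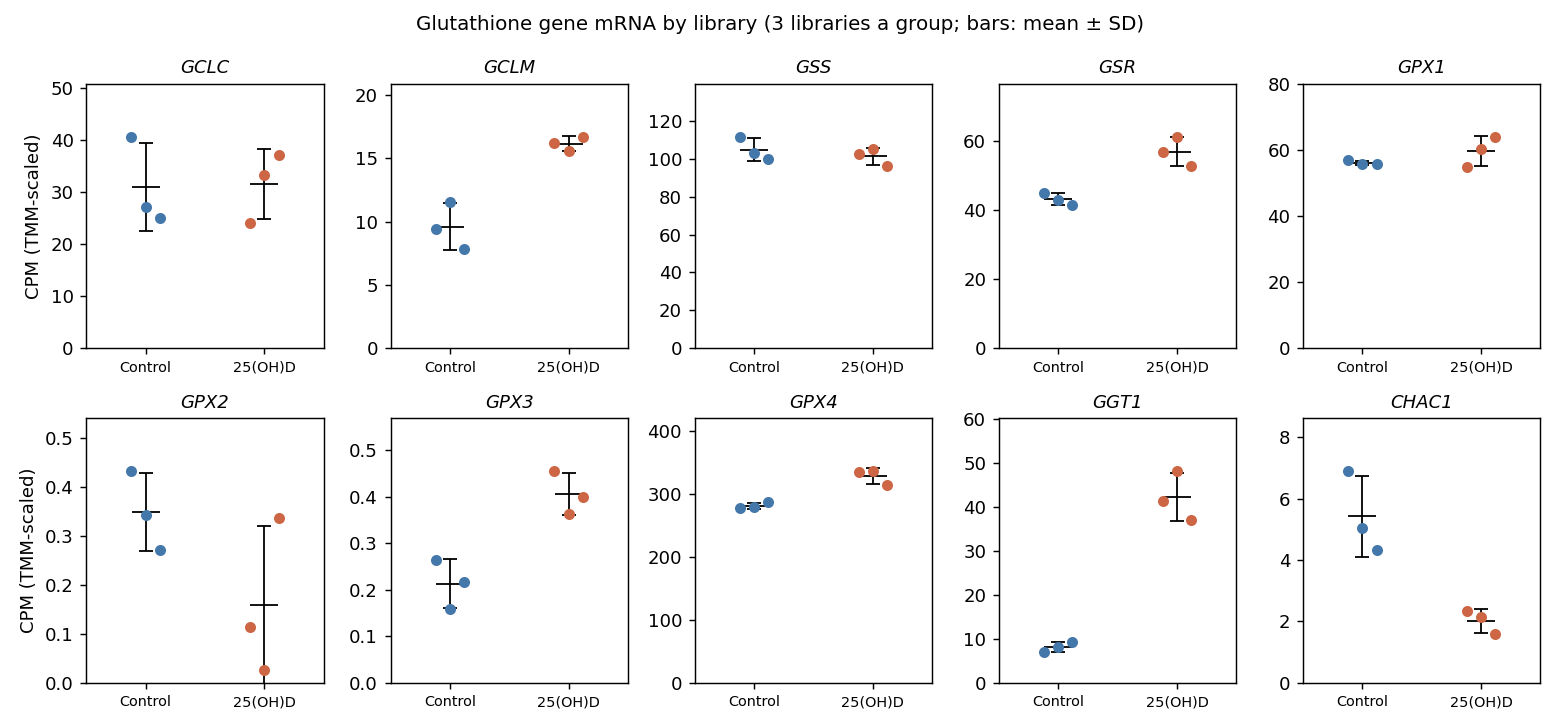
CPM of each glutathione gene on the vertical axis, with the 3 Control and the 3 25(OH)D libraries as points in order of replicate number and bars for the mean ± SD (the lower bar of GPX2 is cut at 0). The groups are apart for GCLM, GSR, GPX3, GPX4, GGT1 and CHAC1 and overlap for GCLC, GSS, GPX1 and GPX2.

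The stretches below lie before transcription starts of GCLM, CHAC1 and GGT1, shown because these genes changed most among the members that passed the test and each held a match to a searched motif within 250 bases of a RefSeq start (GRCh38.p14). Each is 30 bases, written 5′ to 3′ on the strand of the gene, with the match in capitals. The motifs, searched on both strands, were the core of the antioxidant response element (TGACNNNGC), a core of the C/EBP-ATF response element bound by ATF4 dimers (TGATGNAA), the E-box bound by MYC (CACGTG) and, with its letters left out, the DR3 direct repeat bound by the vitamin D receptor. They lie at chr1:93909446-93909475 on the minus strand for GCLM, at chr15:40953250-40953279 on the plus strand for CHAC1 and at chr22:24603153-24603182 on the plus strand for GGT1. GENCODE 29 annotates exons within all 3 of the windows of 250 bases, over 26 bases for GCLM, 250 for CHAC1 and 46 for GGT1.
GCLM: ctacgatttctGCTTAGTCAttgtcttcca
CHAC1: cctcccctgccgTTGCATCActcctgccag
GGT1: gggaaggaggaGCTGGGTCAcagcagggaa

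The capitals of GCLM and GGT1 match the antioxidant response element core on the opposite strand, from 34 to 26 bases before the start of GCLM and from 29 to 21 bases before the downstream start of GGT1. The window before the upstream start of GGT1 (chr22:24583500-24583749) held none of the motifs. The capitals of CHAC1 match the C/EBP-ATF core on the opposite strand, from 209 to 202 bases before the start. Of the 35116 RefSeq windows of this length, 10.9% held the antioxidant response element core, 3.14% the C/EBP-ATF core, 6.34% the E-box and 0.490% the DR3. RefSeq windows were found for 8 of the 10 members, without GSS and GSR. Among the others, GPX2 held the antioxidant response element core from 122 to 114 bases before the start and GPX1 an E-box from 24 to 19 bases before it, and GCLC, GPX3 and the 3 starts of GPX4 held no match. The matches of GPX1 and GPX2 lie within the spans that the deposited table gives these genes, and that of GPX1 lies in an exon. The searched window of GCLC also lies within the span of its gene. These are matches of letters, and binding was not measured.

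For glutathione synthesis, GCLM rose while GCLC and GSS did not pass the test. GCLM (chromosome 1, 93885205 to 93909456, minus strand, GRCh38 positions of the deposited table) had 9.39, 11.5 and 7.82 CPM in Control against 16.2, 15.6 and 16.7 CPM in 25(OH)D. Each 25(OH)D library was above each Control library, and the Control libraries were the more spread. Its mean rose from 9.58 ± 1.86 to 16.2 ± 0.587 CPM (SD, n = 3 each, log2 fold change 0.75, SE 0.118, adjusted p = 1.77e-04). The catalytic subunit GCLC (chromosome 6, 53497341 to 53616970, minus strand) had 40.6, 27.2 and 25.0 CPM in Control against 24.0, 33.3 and 37.0 CPM in 25(OH)D. The highest of the 6 values was in Control replicate 1 and the lowest in 25(OH)D replicate 1, and the groups overlapped over most of their range. The log2 fold change of GCLC was 0.021 (95% interval -0.34 to 0.38, adjusted p = 0.940), in folds an interval from 0.792 to 1.30. This interval rests on a SE of 0.166. With DESeq2 the SE of GCLC was 0.283, so the interval may be too narrow. Leaving out Control replicate 1 gave GCLC a log2 fold change of 0.27, and over all 6 such omissions it lay between -0.10 and 0.27, without passing the test. GCLC shares 529 exon bases, 6.25% of its length, on the same strand with RP1-27K12.2, which had at most 2 counts in any library. It shares 7 exon bases with RP1-27K12.4 on the opposite strand. Of the 100-base stretches of GCLC transcripts, 4.77% occur in AL033397.1.

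The ratio of GCLC to GCLM, per gene length, was 2.77, 1.51 and 2.05 in Control against 0.95, 1.37 and 1.42 in 25(OH)D. Each 25(OH)D library was below each Control library, with a mean of 2.11 ± 0.634 against 1.25 ± 0.258 (SD, n = 3 each). The two-sided exact permutation test gave p = 0.1, the smallest that 3 libraries against 3 allow. The difference of -0.863 became -0.533 without Control replicate 1. GSS (chromosome 20, 34928430 to 34955817, minus strand) was far more abundant than either subunit, with 112, 103 and 99.9 CPM in Control against 102, 105 and 96.5 CPM in 25(OH)D. The groups overlapped, and the log2 fold change was -0.050 (95% interval -0.16 to 0.063, adjusted p = 0.512).

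**Figure D2:**
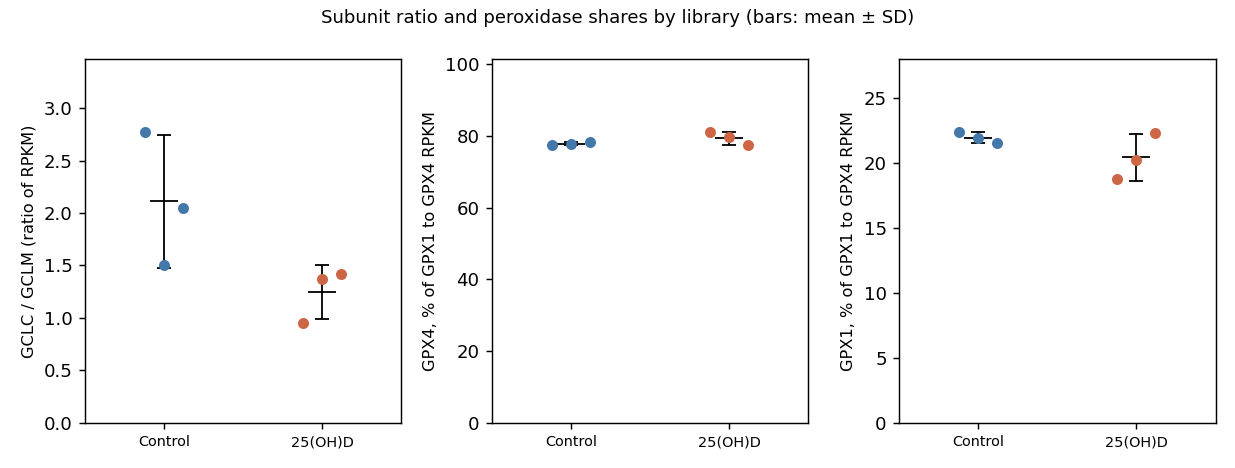
Ratio of GCLC to GCLM (RPKM, left) and the shares of GPX4 (middle) and GPX1 (right) in the summed RPKM of GPX1, GPX2, GPX3 and GPX4, with a point for each of the 3 libraries of a group and bars for the mean ± SD. The GCLC to GCLM ratio is between 1.51 and 2.77 in Control and between 0.95 and 1.42 in 25(OH)D, while the shares of GPX4 and GPX1 overlap between the groups.

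GSR (chromosome 8, 30678061 to 30727926, minus strand), which recycles oxidised glutathione, had 45.2, 42.9 and 41.6 CPM in Control against 56.8, 61.4 and 52.9 CPM in 25(OH)D. All 25(OH)D libraries lay above all Control libraries. The mean rose from 43.2 ± 1.79 to 57.0 ± 4.27 CPM (SD, n = 3 each, log2 fold change 0.40, SE 0.0631, adjusted p = 1.83e-04).

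Among the peroxidases, GPX4, which reduces lipid hydroperoxides in membranes, was the most abundant and rose slightly. GPX4 (chromosome 19, 1103926 to 1106791, plus strand) had 278, 280.1 and 287 CPM in Control against 336, 336 and 314 CPM in 25(OH)D. The groups were apart by more than the range within either Control or 25(OH)D, and the log2 fold change was 0.22 (SE 0.0389, adjusted p = 4.45e-04). GPX1 (chromosome 3, 49357176 to 49358600, minus strand), the peroxidase of cytosol and mitochondria, had 56.8, 55.7 and 55.8 CPM in Control against 54.8, 60.2 and 64.0 CPM in 25(OH)D. The Control libraries lay close together inside the wider 25(OH)D range. For GPX1 the log2 fold change was 0.090 (95% interval -0.038 to 0.22, adjusted p = 0.277). The processed pseudogene GPX1P1, which shares 4.25% of the 100-base stretches of GPX1 transcripts, was listed with between 1008 and 1145 counts in each library against 1927 to 2364 counts for GPX1, so the reads of GPX1 may be split between them. GPX1P1 had a log2 fold change of 0.17 (adjusted p = 0.138).

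GPX2 and GPX3 had few reads. GPX2 (chromosome 14, 64939152 to 64942905, minus strand), known from epithelia of the gut, had 18, 13 and 10 counts in Control against 4, 1 and 11 in 25(OH)D. The last of these lay inside the Control range, and the log2 fold change was -1.18 (SE 0.649, adjusted p = 0.189). Without 25(OH)D replicate 3 the log2 fold change of GPX2 was -2.29 with an adjusted p of 0.0365, and without 25(OH)D replicate 2 it was -0.64 with an adjusted p of 0.513, so its value and call depended on single libraries. GPX3 (chromosome 5, 151020438 to 151028993, plus strand), the secreted peroxidase of plasma, had 11, 6 and 8 counts in Control against 16, 14 and 13 counts in 25(OH)D. The groups did not overlap, but the log2 fold change of 0.91 had a SE of 0.458 and an adjusted p of 0.149, and a difference was not established at this depth. Groups did not overlap in CPM for 6 members, a pattern seen in 45.7% of all genes tested.

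Per gene length, GPX4 made up most of the measured peroxidase mRNA. The summed RPKM (CPM without TMM factors, per kilobase of gene) of GPX1, GPX2, GPX3 and GPX4 was 181, 181 and 183 in Control against 201, 207 and 197 in 25(OH)D. The 25(OH)D libraries were all above the Control libraries, by 19.9 RPKM on average (exact permutation p = 0.1, the smallest possible). The share of GPX4 in this sum was 77.9% ± 0.457 in Control and 79.4% ± 1.84 in 25(OH)D, and that of GPX1 22% ± 0.421 and 20.5% ± 1.80 (SD, n = 3 each). The libraries of the groups overlapped for both shares (exact permutation p = 0.3 for each). Reads listed for the pseudogene GPX1P1 are not in the sum, so the share of GPX1 may be too low and that of GPX4 too high. GPX2 and GPX3 together were a negligible part of the sum, with 0.130% ± 0.0312 and 0.0377% ± 0.00940 in Control (SD, n = 3).

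The largest change was that of GGT1 (chromosome 22, 24583750 to 24629005, plus strand), the cell-surface enzyme that removes the glutamate of extracellular glutathione and so starts its reuse. GGT1 had 294, 313 and 346 counts in Control against 1460, 1853 and 1212 counts in 25(OH)D. In CPM these were 7.06, 8.28 and 9.40 against 41.5, 48.2 and 37.2. The lowest 25(OH)D library was well above the highest Control library, and the log2 fold change of GGT1 was 2.36 (SE 0.111, adjusted p = 7.13e-10). Of the 18183 genes tested, 1.40% had a change of at least this size. Leaving out any one library kept the log2 fold change of GGT1 between 2.27 and 2.47.

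GGT1 belongs to a family of near copies on chromosome 22, and 16.2% of the 100-base stretches of its transcripts occur in other genes. The copy sharing most, GGTLC2, had 10, 2 and 6 counts in Control against 32, 46 and 26 counts in 25(OH)D, with a log2 fold change of 2.63 (SE 0.476, adjusted p = 5.98e-04). GGT2 had at most 2 counts in any library and GGT3P at most 1. Of the copies that share fewer stretches, GGT4P was not listed in the count table and GGTLC5P was not analysed here. How the counting treated reads that match several copies is not given in the sources used here, and GGTLC2 is therefore uncertain. GGT1 also shares 306 exon bases, 6.90% of its length, with the splicing gene SNRPD3 on the same strand, and SNRPD3 had a log2 fold change of 0.018 (adjusted p = 0.869).

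CHAC1 (chromosome 15, 40952962 to 40956519, plus strand), the cytosolic enzyme that degrades glutathione, was the member that fell. It had 287, 191 and 159 counts in Control against 82, 82 and 52 counts in 25(OH)D. In CPM these were 6.89, 5.05 and 4.32 against 2.33, 2.13 and 1.60. The highest 25(OH)D library was below the lowest Control library, and Control replicate 1 was the highest of all. The log2 fold change of CHAC1 was -1.42 (SE 0.204, adjusted p = 7.96e-05), and without Control replicate 1 it was -1.20. Its transcripts shared no 100-base stretch with another gene.

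**Figure D3:**
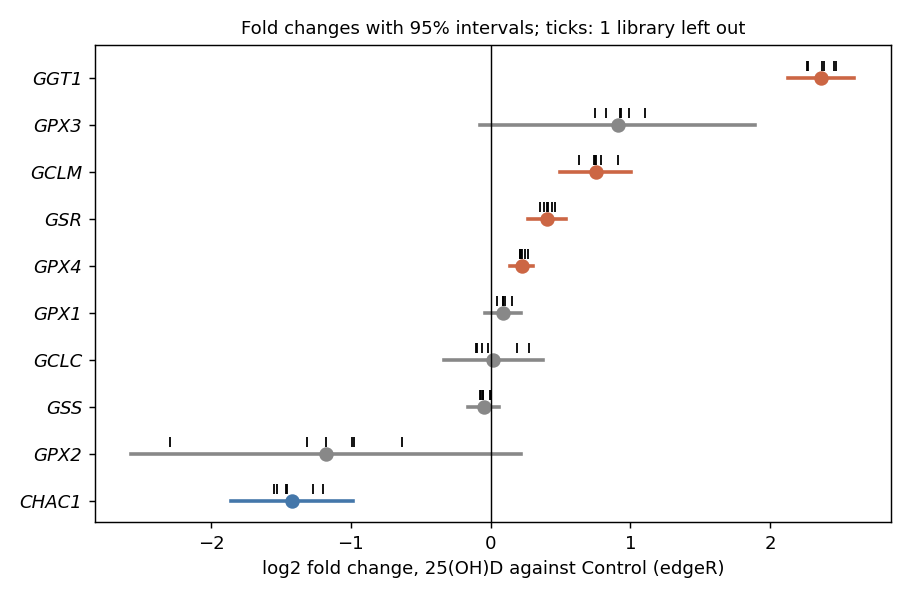
Log2 fold change of 25(OH)D against Control for each member (horizontal axis, edgeR) with its 95% interval as a line, and ticks for the values with 1 library left out. Members that rose are orange, the member that fell is blue and those not called are grey. GGT1 at 2.36 and CHAC1 at -1.42 stay on their side of 0 with any library left out, while the ticks of GCLC lie on both sides of 0.

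Per gene length, the members' mean levels spanned from GPX4 at the top to GPX3 at the bottom in Control. In the Control libraries the mean RPKM was 142 for GPX4, 55.4 for GSS, 39.9 for GPX1, 13.5 for GSR, 3.71 for GCLC, 2.67 for CHAC1, 1.89 for GGT1, 1.79 for GCLM, 0.236 for GPX2 and 0.0684 for GPX3. Neighbours in this order overlapped between libraries for GCLC and CHAC1, for CHAC1 and GGT1 and for GGT1 and GCLM, and did not overlap elsewhere. The level of GPX1 leaves out the 1008 to 1134 counts listed for its pseudogene GPX1P1 in Control. Some of these may come from GPX1, so the order of GSS and GPX1 is uncertain. In the 25(OH)D libraries GGT1 stood next below GSR, at 9.40 ± 1.29 RPKM (SD, n = 3), above GCLC at 3.66 and GCLM at 2.93, which overlapped each other. CHAC1 was below both at 0.966 ± 0.184 RPKM, and GPX3 and GPX2 overlapped at the bottom.

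**Figure D4:**
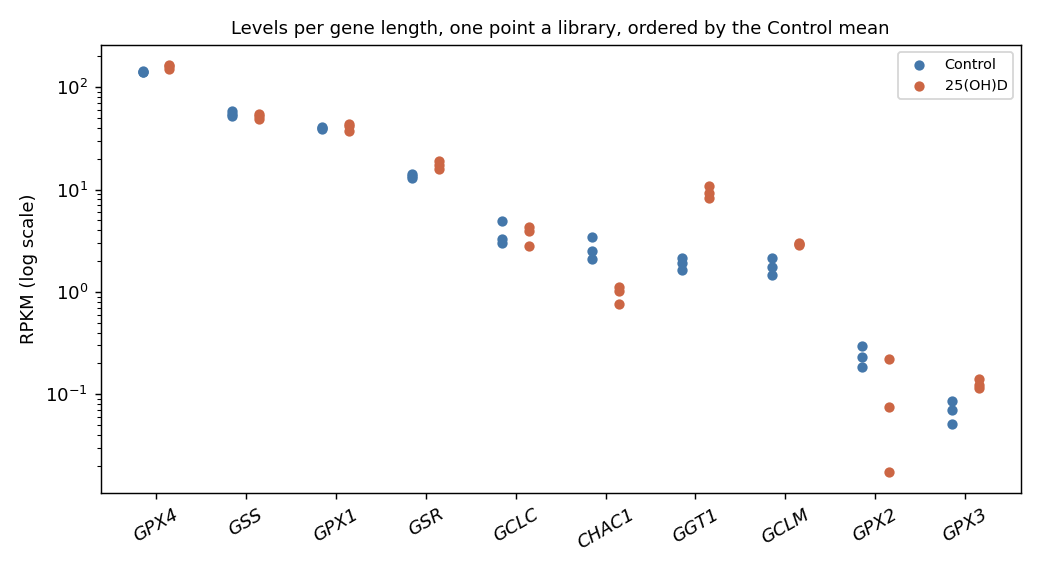
RPKM on a log axis for each member, a point per library, with Control in blue and 25(OH)D in orange, ordered by the Control mean. GPX4 lies highest in both groups at 142 and 160.2 RPKM on average. GGT1 goes from 1.89 to 9.40 RPKM and CHAC1 from 2.67 to 0.966 RPKM.

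Among 9138 genes with a mean of at least 10 CPM, those whose log2 CPM followed GGT1 most closely over the 6 libraries were PNP (Pearson's r = 0.999), ANXA9 (0.999) and HADHA (0.998). For CHAC1 they were EXOSC3 (r = 0.9997), DSCC1 (0.998) and EIF4EBP1 (0.997). These correlations are descriptive, since 1153 genes had r over 0.95 with GGT1 and 400 with CHAC1, and the libraries share the split into groups.

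The other genes of the pathway were taken from 10 lists with 112 genes, of which 86 were tested. Of these, 24 rose, 16 fell and 46 did not pass, with a median log2 fold change of 0.039 beside -0.011 over all genes, of which 17.3% were called higher and 16.5% lower. The alternatives gave 18 to 27 list genes higher and 13 to 18 lower. By list the median was 0.27 for the other genes of breakdown, 0.27 for cystine, glutamate and cysteine supply, 0.085 for transport, 0.042 for the NRF2 regulators and 0.023 for selenoprotein synthesis. It was 0.0078 for the transferases, -0.011 for glutaredoxins and glyoxalases, -0.023 for NADPH supply and -0.28 for the ATF4 arm. The supply of cysteine showed changes in both directions. SLC7A11, the cystine importer of the plasma membrane, had the strongest fall of the list, from 74.0 ± 1.14 to 17.4 ± 0.767 CPM (SD, n = 3 each, log2 fold change -2.09, SE 0.0580, adjusted p = 2.13e-12). It shares 865 exon bases, 8.97% of its length, on the opposite strand with SLC7A11-AS1, which had a log2 fold change of -1.96 and at most 672 counts in a library against 575 to 3101 for SLC7A11. The library kit was stranded, but the strand setting of the counting is not given in the sources used here, so reads from the shared bases may be counted for either gene. SLC3A2, the chain that pairs with SLC7A11, fell by 0.52 on the log2 scale (adjusted p = 4.13e-07). MAT2A, which makes S-adenosylmethionine from methionine, rose from 226 ± 6.76 to 503 ± 15.7 CPM (SD, n = 3 each, log2 fold change 1.15, adjusted p = 1.98e-11). MAT2A shares 558 exon bases, 12.4% of its length, on the opposite strand with GGCX. The latter had 1340 to 1595 counts in Control and 1708 to 1991 in 25(OH)D. In all, 5 of the 10 tested genes of this list rose and 2 fell, and CBS and CTH, which turn homocysteine into cysteine, had log2 fold changes of 0.10 (adjusted p = 0.124) and 0.41 (adjusted p = 0.326).

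In the list for NADPH supply, which feeds glutathione reductase, 2 of 11 tested genes rose and 2 fell. These counts are close to the shares over all genes, 17.3% higher and 16.5% lower. IDH1, the cytosolic isocitrate dehydrogenase that makes NADPH, rose from 178 ± 5.18 to 441 ± 6.72 CPM (SD, n = 3 each, log2 fold change 1.31, SE 0.0376, adjusted p = 3.24e-12), and PGD, of the pentose phosphate pathway, rose with 0.20 (adjusted p = 7.46e-04). MTHFD2 fell by 0.28 (adjusted p = 1.08e-04) and NADK2 by 0.20 (adjusted p = 0.0208) on the log2 scale, and the other 7 did not pass. MTHFD2 shares 1324 exon bases, 27.2% of its length, on the opposite strand with SLC4A5, which had at most 183 counts, and 295 with RP11-287D1.3, which had 2183 to 2498 counts in Control and 1555 to 1958 in 25(OH)D.

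Of the other genes of the gamma-glutamyl cycle and of glutathione breakdown, 4 of 8 tested genes rose, GGCT, LAP3, CNDP2 and the uncertain GGTLC2, and none fell, beside 17.3% higher and 16.5% lower over all genes. GGCT, which turns gamma-glutamyl amino acids into oxoproline, rose from 144 ± 4.41 to 244 ± 9.75 CPM (SD, n = 3 each, log2 fold change 0.76, adjusted p = 5.74e-09), and shares 441 exon bases on the same strand with RP4-777O23.3, whose own log2 fold change was 0.76. CHAC2, the constitutive relative of CHAC1, had a log2 fold change of -0.10 (adjusted p = 0.532), and GGT6 and GGT7 had -0.041 (adjusted p = 0.812) and 0.16 (adjusted p = 0.460). CHAC1 thus fell where its relative CHAC2 did not pass the test, and the difference between them was not tested.

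Transporters of glutathione and its conjugates were split, 2 higher and 2 lower of 9 tested, beside 17.3% higher and 16.5% lower over all genes. ABCC3 rose with a log2 fold change of 1.22 (adjusted p = 2.60e-10) and ABCC1, the best known exporter of glutathione conjugates, with 0.91 (adjusted p = 2.66e-07), while ABCC4 fell by 2.13 (adjusted p = 7.13e-05) and ABCC5 by 0.59 (adjusted p = 6.07e-08) on the log2 scale. ABCC4 had few reads, with 98, 60 and 66 counts in Control against 14, 14 and 18 in 25(OH)D, and a SE of 0.302. The other 5 of the 9 tested genes did not pass, among them the mitochondrial glutathione importer SLC25A39 with 0.062 (adjusted p = 0.655).

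Of the 12 tested glutathione transferases, 2 rose and 1 fell, beside 17.3% higher and 16.5% lower over all genes. GSTK1, of mitochondria and peroxisomes, rose from 27.6 ± 1.93 to 49.1 ± 1.12 CPM (SD, n = 3 each, log2 fold change 0.83, adjusted p = 1.58e-07), and MGST1 rose with 0.36 (adjusted p = 7.01e-05). GSTCD, which carries a transferase-like domain, fell by 0.26 on the log2 scale (adjusted p = 0.0119), but did not pass without Control replicate 2 (adjusted p = 0.0560), 25(OH)D replicate 1 (0.0595) or 25(OH)D replicate 2 (0.0663). GSTCD shares 331 exon bases, 5.26% of its length, on the opposite strand with INTS12. The latter had 916 to 1051 counts in Control and 712 to 820 in 25(OH)D. GSTP1, a major transferase of many tissues, had at most 6 counts in any library and was not tested. Among glutaredoxins and glyoxalases, GLRX fell by 0.88 on the log2 scale (adjusted p = 6.52e-04), HAGH rose with 0.25 (adjusted p = 0.00454) and the other 5 of 7 did not pass. HAGH shares 254 exon bases, 4.25% of its length, on the opposite strand with FAHD1. The latter had 1009 to 1146 counts in Control and 867 to 1197 in 25(OH)D. GPX8, the only other peroxidase that could be tested, had a log2 fold change of -0.76 (adjusted p = 0.0816), and GPX7 had at most 4 counts.

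Synthesis of selenoproteins, on which the selenocysteine of GPX4 and GPX1 depends, showed small changes. SECISBP2L, SECISBP2, SEPHS2 and LRP8, a receptor for selenoprotein P, rose, and SEPHS1 fell, of 10 genes tested. Over all genes, 17.3% were called higher and 16.5% lower. The largest of the rises were 0.33 on the log2 scale for SECISBP2L (adjusted p = 5.30e-05) and for LRP8 (adjusted p = 6.09e-05), and SEPHS1 fell by 0.25 (adjusted p = 0.00440).

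Of the NRF2 regulators, NFE2L2, which encodes NRF2, had 79.5 ± 9.66 CPM in Control and 80.2 ± 1.75 CPM in 25(OH)D (SD, n = 3 each, log2 fold change 0.011, adjusted p = 0.925), and its inhibitor KEAP1 had -0.045 (adjusted p = 0.644). The small MAF partners MAFK and MAFG rose, with log2 fold changes of 0.51 (adjusted p = 2.13e-05) and 0.40 (adjusted p = 0.00305), and BACH1, a repressor at antioxidant response elements, fell by 0.52 (adjusted p = 0.00709). The call of BACH1 was lost with limma on log2(RPKM + 1) and log2(RPKM + 0.1), with adjusted p of 0.105 and 0.118, where the other alternatives gave 0.00149 to 0.0385. MAFK shares 809 exon bases, 18.1% of its length, on the opposite strand with TMEM184A, which had 1278 to 1357 counts in Control and 1903 to 2129 in 25(OH)D. These are mRNA levels, and the activity of NRF2 was not measured. In the ATF4 arm 6 of the 10 tested genes fell, ATF4, DDIT3, TRIB3, NUPR1, ATF3 and PPP1R15A, and EIF2AK2 and EIF2AK4 rose, beside 16.5% lower and 17.3% higher over all genes. ATF4 fell from 404 ± 22.5 to 241 ± 8.14 CPM (SD, n = 3 each, log2 fold change -0.75, adjusted p = 1.14e-08), and DDIT3 and TRIB3 fell by 0.81 (adjusted p = 1.42e-05) and 0.75 (adjusted p = 2.43e-07). DDIT3 shares 355 exon bases, 28.0% of its length, on the opposite strand with MARS, which had 4355 to 4702 counts in Control and 2414 to 2808 in 25(OH)D. The part of ATF4 in the fall of CHAC1 was not tested.

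**Figure D5:**
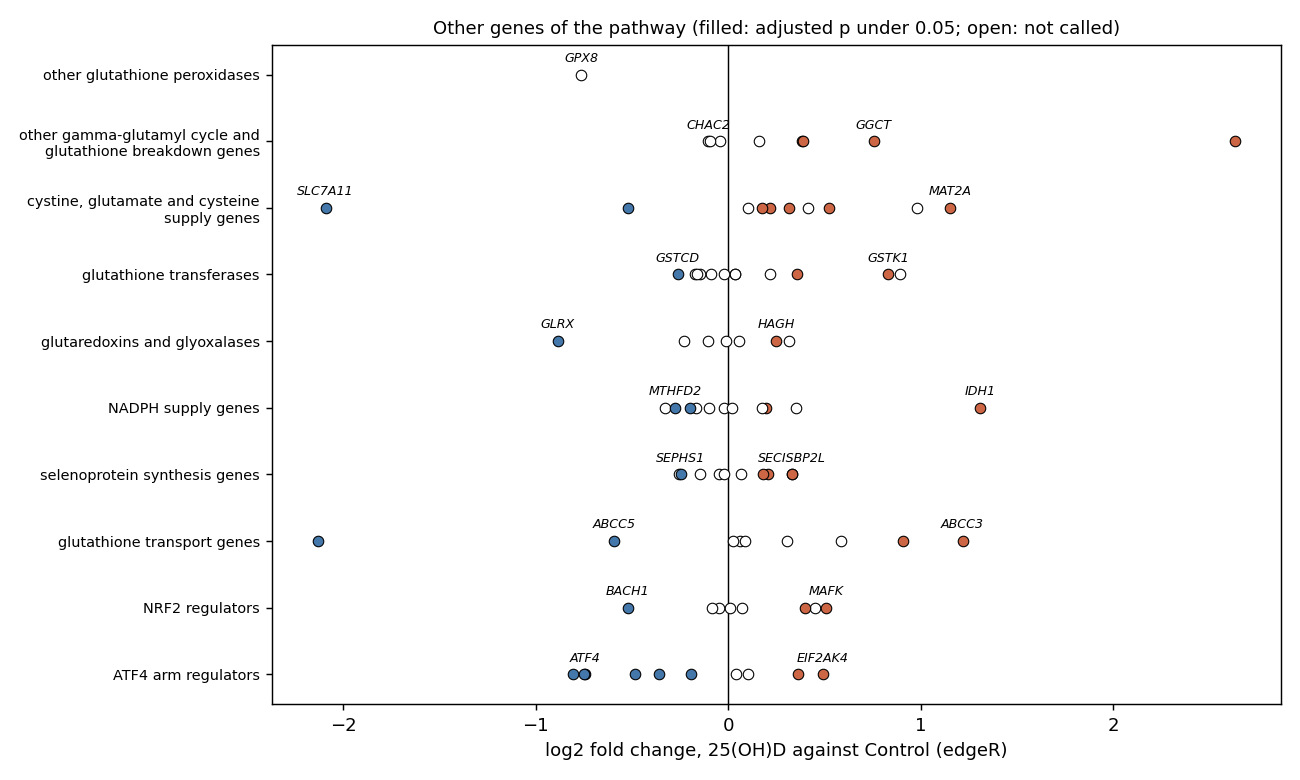
Log2 fold change (horizontal axis, edgeR, 25(OH)D against Control) of each tested gene in the 10 lists of other pathway genes, one row a list, filled orange for genes that rose, filled blue for those that fell and open for those not called. Names mark the gene with the smallest p in each direction. SLC7A11 lies at -2.09 and IDH1 at 1.31, and 6 of the 10 genes of the ATF4 arm are blue.

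The 6 libraries held between 33268860 and 40928176 counts, and 3 counts were worth between 0.0733 and 0.0902 CPM. The mitochondrial genome gave 7.85% to 7.99% of Control counts and 8.89% to 9.24% of 25(OH)D counts, and with these genes left out 4 members were higher and 1 lower, as with them. All 8 markers of luminal apocrine breast cells were present, at a summed 3432 to 3525 CPM in Control and 3892 to 3943 CPM in 25(OH)D. The 4 leukocyte markers summed to at most 0.364 CPM. Of 5 fibroblast markers, COL1A1 had between 1119 and 1604 counts, the others had at most 16 and COL3A1 was not listed. Of 3 endothelial markers, CDH5 was not listed and the sum was at most 0.489 CPM.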

How the data were processed

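The 3 Control and 3 25(OH)D libraries were grouped by their titles, and the table columns were matched through the series' own names for the control and experiment groups. The authors deposited counts of reads per gene, without normalization. The processing notes list Trimmomatic 0.36, featureCounts of Subread 1.5.1, edgeR 3.12.1 and GRCh38. The aligner, the annotation release and the strand setting are not given in the sources used here. The authors also deposited RPKM values, which equal each count divided by gene length and library total (largest relative difference 2.23e-13).

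Counts were tested with edgeR 4.0.16 in R 4.3.3 (TMM factors, default low-count filter with a minimum count of 10, quasi-likelihood test, no covariates) over 18183 genes with Benjamini-Hochberg adjustment. Simulated data with changes of 1 on the log2 scale gave 99 of 100 genes called, and 74 of 100 at 0.5. The changed genes had a mean over 1 CPM, and all genes were given the same dispersion. These rates therefore do not apply to GPX2 and GPX3, which lay below 1 CPM, or to more variable genes such as GCLC. CPM are scaled by TMM factors. The SE is the size of the log2 fold change divided by the square root of the test's F statistic. Intervals use this SE and the moderated degrees of freedom. Alternatives used DESeq2 1.42.0, limma 3.58.1 on log2(RPKM + 1) or log2(RPKM + 0.1), other factors and filters, the replicate number as a block and omission of each library. Ratios were compared by two-sided exact permutation tests. Replicates differed by more than sampling noise (mean chi-square per gene between 4.01 and 12.1). The paper calls the libraries biological replicates, without naming separate cultures. The edgeR p-values set each group difference against the variation between these libraries, moderated across genes. Variation between separate cultures may not be included. Transcript stretches came from GENCODE 29, and gene spans were identical to it for 93.1% of 23276 shared names. Python 3.11.15 with pandas 2.3.3, scipy 1.17.1, numpy 2.4.6 and matplotlib 3.10.9 did the rest. Named genes were the members, and in each list the gene with the smallest p in each direction. Many other list genes were named after their values were seen. Under the alternatives these others were followed only in the counts over the lists. The members and lists were chosen with earlier results of these data known. Part of the pathway lists is not reported here, and the counts over the lists are without it.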

Additional observations from a re-analysis of the deposited data

How the results depend on the processing

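GGT1, CHAC1, GCLM, GSR and GPX4 kept their direction and passed the test in all 16 alternatives. The number of members called higher was 4 in each, and of those called lower 1, but 2 without 25(OH)D replicate 3, where GPX2 passed (range 1 to 2 with each library left out). The log2 fold change of GCLC changed sign, to -0.020 with upper-quartile factors, -0.024 with library sizes alone, -0.0093 with limma on log2(RPKM + 1), -0.010 with log2(RPKM + 0.1), and between -0.10 and 0.27 with a library left out, without passing. With a library left out, GSS ranged from -0.078 to 0.0049 and CHAC2 from -0.16 to 0.0044, neither passing. With counts in place of RPKM, the difference in the GPX3 share was 0.0414 percentage points in place of 0.0250, and that in the ratio of GCLC to GCLM -1.35 in place of -0.863, since length no longer scales them. Leaving out a library gave ratio differences from -1.16 to -0.533.

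Between libraries of the same number, deviations from the group means correlated at -0.295, 0.113 and -0.150. Libraries of different numbers gave -0.137 to 0.247. These values show no pairing by number, but with 3 libraries a group they cannot exclude it. With the replicate block 5953 genes were called in place of 6142, and 4 members were higher and 1 lower. The count fell to 4424 with limma on log2(RPKM + 1), 1998 higher and 2426 lower, and with library sizes alone 2689 genes were higher and 3667 lower. Of 461 single-gene values for 29 genes under the alternatives, 445 kept direction and side of the threshold, 5 no longer passed (GSTCD without Control replicate 2, 25(OH)D replicate 1 or 25(OH)D replicate 2, and BACH1 with limma), 1 newly passed and 10 changed sign. The other factors moved the median of all genes by -0.044 (log2) at most, with library sizes alone. The depth limits GPX2 and GPX3, with at most 18 counts.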
